A study of Mus musculus with 5 samples.

Results

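The IL-6, IL-10 and STAT3 axis was followed here through 9 named genes in cocultured macrophages: *Il6*, *Il10* and *Osm* (ligands), *Il6ra*, *Il6st*, *Il10ra* and *Il10rb* (receptor chains), *Stat3* (the shared transcription factor), and *Socs3* (its feedback inhibitor). They were chosen by name and are 9 of the 17058 genes listed in the RNA-Seq data. The libraries hold poly-A RNA of bone marrow–derived macrophages (BMDMs) grown from the marrow of female BALB/c mice. The BMDMs had shared medium for 48 hours, across a porous membrane, with 4T1 cells, a mouse mammary cancer line of the same strain. In 2 libraries the 4T1 cells were WT, and in 3 they were *Adam17*-/-. The sequenced macrophages were WT for *Adam17* in both groups. All 3 *Adam17*-/- libraries came from the knockout line designated 2.8, so effects of the deletion and of any other trait of that 1 line cannot be told apart. There was no library of macrophages without cancer cells. The comparison asks how macrophage transcripts differ when the cancer cells cannot shed membrane-anchored proteins through ADAM17, a protease whose known substrates include the IL-6 receptor.

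IL-6 binds its receptor chain IL-6Rα, which then engages gp130, the product of *Il6st*. Gp130 is the signaling chain of the whole IL-6 family, oncostatin M among them. IL-10 binds IL-10Rα (*Il10ra*) together with IL-10Rβ (*Il10rb*). Both routes activate Janus kinases that phosphorylate STAT3. In macrophages, the IL-10 route is known for restraining inflammatory genes, and SOCS3 blocks gp130 but not the IL-10 receptor, which separates both responses although they share STAT3.

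The libraries held 14658694 to 20788373 counts. The level used here as a floor, 3 counts, corresponded to 0.157 to 0.197 CPM (counts scaled to library size with edgeR's TMM factors). The labels do not state whether the libraries came from separate mice or cultures, so p-values measure only the spread between these samples. *Adam17* itself was at 198 and 200 CPM in the BMDMs of WT cocultures and at 152, 164 and 161 CPM in those of *Adam17*-/- cocultures. These are transcripts of the macrophages and do not check the deletion. Macrophage markers summed to 28416 and 27659 CPM with WT 4T1 cells and 17945, 18501 and 19906 CPM with *Adam17*-/- 4T1 cells, and 6 of the 8 fell. *Lyz2* alone held a mean of 12681 CPM with WT 4T1 cells. *Csf1r* and *Mertk* did not pass, with log2 fold changes of -0.29 and -0.06 (edgeR, adjusted p = 0.0520 and 0.572). Markers of neutrophils and their precursors summed to 406 and 334 CPM against 1261, 1332 and 1158 CPM, and 9 of the 10 rose. Of 6 dendritic cell markers tested, 3 rose, as did 2 of 5 stromal, 1 of 2 mast cell and 0 of 2 lymphocyte markers. The 8 epithelial markers summed to 11.0 to 13.8 CPM over the 5 libraries, of which *Cdh1* held 10.6 to 13.2 CPM. *Krt18* had 5 to 8 counts and *Krt8* 1 to 3 counts in each library, and *Epcam* had 1 count in 1 WT library and 0 in the other 4. The part of these marker shifts in the results below was not tested, and in bulk RNA fewer cells of a type and less RNA per cell cannot be told apart.

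Transcripts of the receptors, *Stat3* and *Socs3* were present in every library at levels that differed little between the cocultures, and *Il6* and *Il10* were close to the floor. Among the 9 genes, 7 passed the filter on low counts, and none passed edgeR's quasi-likelihood test at an adjusted p of 0.05 (0 higher, 0 lower). The background over 12576 genes was 14.9% called higher and 16.8% called lower. At an unadjusted p under 0.05, edgeR had 2 of the 7 lower, *Il6ra* and *Il10rb*, and 0 higher, beside 22.6% of all genes lower at that limit. DESeq2 called 0 after adjustment, beside 12.6% of all genes higher and 14.9% lower. It had 1 lower and 0 higher at an unadjusted p under 0.05. The shares of all genes higher in edgeR, and higher or lower in DESeq2, were not computed at that unadjusted limit. In 4 of the 7, the CPM values of both groups did not overlap, which was the case for 58.1% of all genes tested. The median log2 fold change of the 7 genes was -0.0035, and their median absolute log2 fold change was 0.18, beside 0.0092 and 0.27 over all genes.

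**Figure D1:**
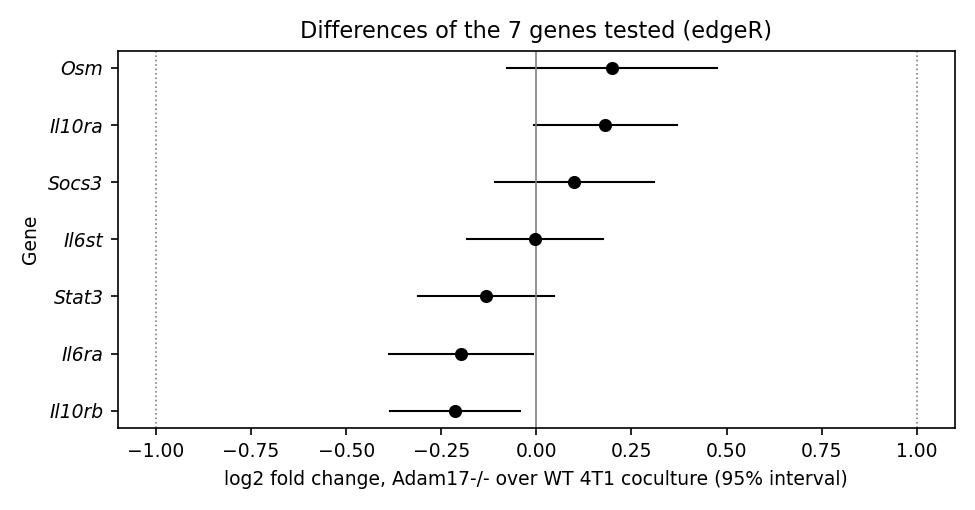
Log2 fold changes (*Adam17*-/- over WT 4T1 coculture) with 95% intervals from edgeR for the 7 genes tested. The intervals of *Il6ra* (-0.39 to -0.01) and *Il10rb* (-0.38 to -0.04) lie below 0, and that of *Il6st* (-0.18 to 0.18) is centered near 0.

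Per length, *Il6* and *Il10* stood apart as rare transcripts, while *Osm*, the other ligand, was in the range of *Il6ra* or above it in the 5 libraries. In FPKM (fragments scaled to transcript length and library size), a level that can be compared between genes, *Il10rb* was highest, at 105 to 117 over the 5 libraries. *Stat3* (73.1 to 78.0 FPKM), *Il10ra* (61.2 to 82.8 FPKM) and *Socs3* (60.8 to 79.8 FPKM) followed with overlapping ranges. *Osm* (24.2 to 37.8 FPKM) and *Il6ra* (23.4 to 26.2 FPKM) came next and overlapped each other, and *Il6st* (18.0 to 21.3 FPKM) lay below both in range. *Il6* (0.11 to 0.44 FPKM) and *Il10* (0.04 to 0.19 FPKM) overlapped each other, on few counts, and were far below every other member. FPKM carries no TMM factors, and on it the median log2 fold change over all genes was 0.15 (limma on log2(FPKM + 0.1)). At that setting 23.3% of all genes were called higher and 8.08% lower. The share of all genes whose FPKM values did not overlap was not computed.

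**Figure D2:**
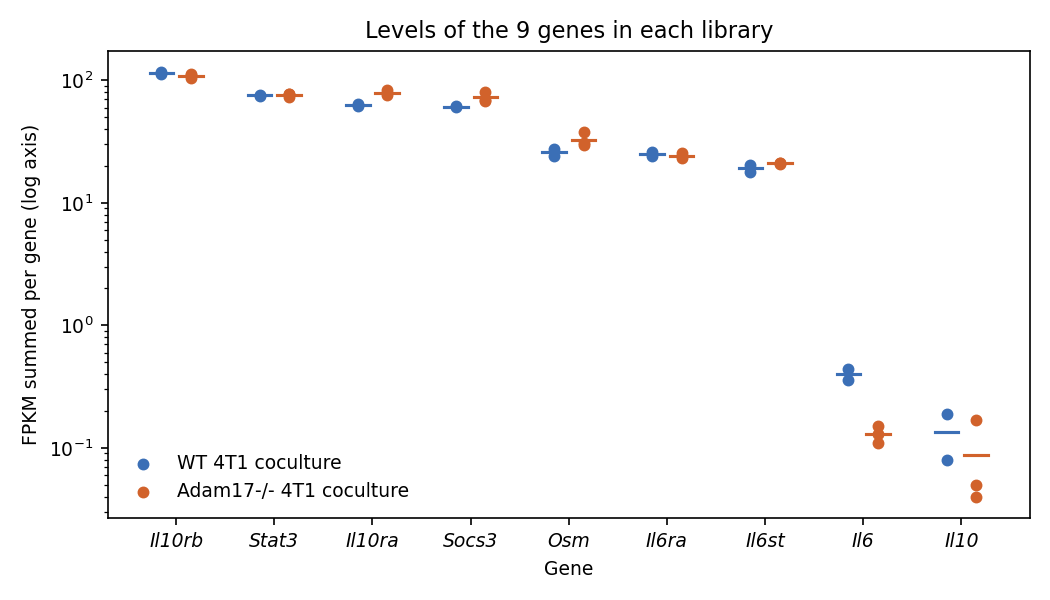
FPKM of the 9 genes on a log scale, 1 point per library, for BMDMs cocultured with WT (2 libraries) or *Adam17*-/- (3 libraries) 4T1 cells. *Il10rb* is highest, at 105 to 117 FPKM, and *Il6* (0.11 to 0.44 FPKM) and *Il10* (0.04 to 0.19 FPKM) overlap at the bottom.

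*Il6* (Entrez gene 16193, GRCm38 chr5:30013114-30019975) encodes the founding ligand of the gp130 family. It had 8 and 9 counts in the libraries of WT cocultures and 2, 2 and 3 in those of *Adam17*-/- cocultures, or 0.42 and 0.49 against 0.11, 0.13 and 0.16 CPM. The groups did not overlap, and each *Adam17*-/- library was at or below the floor of 3 counts. The ratio of the summed counts, 7 against 17, was 0.296 after scaling to library size with TMM factors. Its interval of 0.104 to 0.750 covers counting error only. An exact permutation test over the libraries (2-sided) gave p = 0.1, the smallest value that 10 splits allow. *Il6* did not pass the filter on low counts. Without the filter, edgeR gave a log2 fold change of -1.71 and an adjusted p of 0.0952. Both counts of 1 *Adam17*-/- library were assigned to another *Il6* transcript (NM_001314054) than those of the other 4 libraries (NM_031168).

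*Il10* (Entrez gene 16153, chr1:131019845-131024970), the anti-inflammatory ligand, had 5 and 2 counts with WT 4T1 cells and 1, 3 and 1 with *Adam17*-/- 4T1 cells. The groups overlapped around the floor of 3 counts. An exact permutation test (2-sided) gave p = 0.5, in a design whose smallest possible p is 0.1. Of the other ligands of the IL-10 family in the fixed list, none reached the filter on low counts. *Osm* (Entrez gene 18413, chr11:4236785-4241026) encodes oncostatin M, a gp130 ligand made by myeloid cells. It was the most abundant of the 3 ligands, at 55.0 and 46.2 CPM with WT 4T1 cells and 54.5, 67.0 and 53.1 CPM with *Adam17*-/- 4T1 cells. These CPM values overlapped, and the fold of 1.15 had a 95% interval of 0.947 to 1.39 (edgeR, adjusted p = 0.243). The FPKM values, which carry no TMM factors, did not overlap, at 27.5 and 24.2 against 31.0, 37.8 and 29.9. With library size alone the log2 fold change was 0.35 in place of 0.20.

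*Il6ra* (Entrez gene 16194, chr3:89869324-89913196) encodes the ligand-binding chain for IL-6, itself an ADAM17 substrate at the protein level. Its transcript level was 87.8 and 90.1 CPM in BMDMs of WT cocultures and 73.8, 76.4 and 82.3 CPM in those of *Adam17*-/- cocultures. Every *Adam17*-/- library was below both WT libraries. The log2 fold change of -0.20 (SE 0.085, fold 0.872, 95% interval 0.765 to 0.994) did not pass edgeR's test after adjustment (adjusted p = 0.102). In FPKM the groups overlapped, at 24.4 and 26.2 against 23.4, 24.0 and 25.8, and with library size alone the log2 fold change was -0.052. Its 2 listed transcripts differ by 3 bases in their coding sequence, which are shown because they separate the receptor forms of 460 and 459 residues. In the sequence, on the minus strand of GRCm38 at chr3:89878893-89878895, capitals mark the bases that NM_001310676 lacks.
Il6ra triplet absent from NM_001310676: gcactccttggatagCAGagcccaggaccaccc

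The form without those bases held 66.2% and 55.3% of the *Il6ra* FPKM with WT 4T1 cells and 66.0%, 64.1% and 65.8% with *Adam17*-/- 4T1 cells, so the groups overlapped. *Il6st* (Entrez gene 16195, chr13:112464070-112506860), the shared gp130 chain, had the log2 fold change nearest to 0 among the 7 genes tested. It stood at 106 and 113 CPM with WT 4T1 cells and at 107, 111 and 110 CPM with *Adam17*-/- 4T1 cells. In CPM, the *Adam17*-/- libraries lay between the WT libraries. In FPKM, without TMM factors, they lay above both, at 20.7, 21.3 and 21.2 against 18.0 and 20.2. The fold was 0.998, with a 95% interval of 0.881 to 1.13 (edgeR, adjusted p = 0.978).

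*Il10rb* (Entrez gene 16155, chr16:91406157-91425834) encodes the accessory chain that IL-10 shares with other cytokines of its class. It was at 221 CPM in both WT libraries and at 194, 192 and 184 CPM in the *Adam17*-/- libraries. The groups did not overlap, and the WT mean of 221 ± 0.113 CPM (SD, n = 2) compared with 190.2 ± 5.57 CPM (SD, n = 3). The log2 fold change was -0.21 (SE 0.076), with a fold of 0.862 (95% interval 0.766 to 0.970). It did not pass edgeR's test (adjusted p = 0.0564). The adjusted p in edgeR was 0.0354 and 0.0272 without WT replicate 1 or 2, but 0.184, 0.167 and 0.231 without *Adam17*-/- replicate 1, 2 or 3, and with library size alone it was 0.513 at a log2 fold change of -0.068. On the FPKM scale the groups overlapped, at 112 and 117 against 112.5, 110.3 and 105.

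*Il10ra* (Entrez gene 16154, chr9:45253837-45269149) encodes the chain that binds IL-10 and lay in the opposite direction. It was at 239 and 219 CPM in the WT libraries and at 255, 274 and 251 CPM in the *Adam17*-/- libraries. The groups did not overlap, and the fold was 1.13 (95% interval 0.995 to 1.29, edgeR, adjusted p = 0.128). *Il10ra* passed in 4 alternatives, at a log2 fold change of 0.33 with library size alone (edgeR, adjusted p = 0.0136) and in both limma fits on FPKM (adjusted p = 0.0141 and 0.0142), and of 0.24 without WT replicate 1 (edgeR, adjusted p = 0.0347), against 0.18 in the main test. The FPKM values, which carry no TMM factors, did not overlap, at 64.0 and 61.2 against 78.2, 82.8 and 75.7. Part of the difference in counts was in a transcript that is not annotated to give a full receptor. NR_136903 lacks 1 exon of 121 bases, and its counterpart in the GENCODE annotation is listed as a target of nonsense-mediated decay. That exon is shown because its absence defines the transcript. It lies on the minus strand of GRCm38 at chr9:45267100-45267220, with the exon in capitals between the ends of its neighbors.
Il10ra exon absent from NR_136903: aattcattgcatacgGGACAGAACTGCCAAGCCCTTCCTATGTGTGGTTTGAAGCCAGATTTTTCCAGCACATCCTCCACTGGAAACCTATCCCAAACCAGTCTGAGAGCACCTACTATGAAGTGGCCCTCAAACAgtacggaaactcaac

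NR_136903 held 8.61% and 2.24% of the *Il10ra* FPKM with WT 4T1 cells and 19.2%, 10.7% and 11.3% with *Adam17*-/- 4T1 cells. All 3 *Adam17*-/- libraries were above both WT libraries, as a description without a test. Summed over the coding transcripts only, a choice made after these shares were seen, *Il10ra* was at 219 and 214 CPM against 207.5, 245.6 and 223 CPM. The groups then overlapped, and the log2 fold change was 0.06 (SE 0.090), with a fold interval of 0.903 to 1.20 (edgeR, adjusted p = 0.669). The split between transcripts is an estimate from reads that the transcripts largely share.

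*Stat3* (Entrez gene 20848, chr11:100886806-100939594), where both receptor routes meet, was at 371 and 344 CPM in the WT libraries and at 331, 314 and 333 CPM in the *Adam17*-/- libraries. Every *Adam17*-/- library was below both WT libraries. The means were 357 ± 19.0 (SD, n = 2) and 326 ± 10.7 CPM (SD, n = 3). The log2 fold change, -0.13 (SE 0.080), did not pass edgeR's test (adjusted p = 0.232). The fold of 0.912 had a 95% interval of 0.806 to 1.03. The FPKM values overlapped, at 76.5 and 74.3 against 78.0, 73.1 and 77.5. The direction depended on the scaling, and without TMM factors the log2 fold change was 0.015.

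The 3 listed *Stat3* transcripts differ at 2 places, which are shown because they separate the STAT3 forms. NM_213659 encodes 770 residues, NM_213660 lacks 3 bases and encodes 769, and NM_011486 lacks 50 bases, which shifts the frame and gives the shorter STAT3β of 722 residues with another C-terminal end. Both sequences are from the minus strand of GRCm38, at chr11:100889541-100889590 for the stretch of 50 bases and chr11:100893074-100893076 for the 3 bases, with the absent bases in capitals.
Stat3 stretch absent from NM_011486: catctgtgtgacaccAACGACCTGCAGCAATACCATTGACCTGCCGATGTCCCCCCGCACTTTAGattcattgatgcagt
Stat3 triplet absent from NM_213660: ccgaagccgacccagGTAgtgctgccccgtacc

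The full-length form held 82.8% and 79.9% of the *Stat3* FPKM with WT 4T1 cells and 84.0%, 78.7% and 83.7% with *Adam17*-/- 4T1 cells. STAT3β held 5.05% and 6.03% against 7.63%, 9.12% and 4.86%, and the form without the 3 bases held 12.1% and 14.1% against 8.38%, 12.2% and 11.4%. For each of the 3 forms the groups overlapped.

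**Figure D3:**
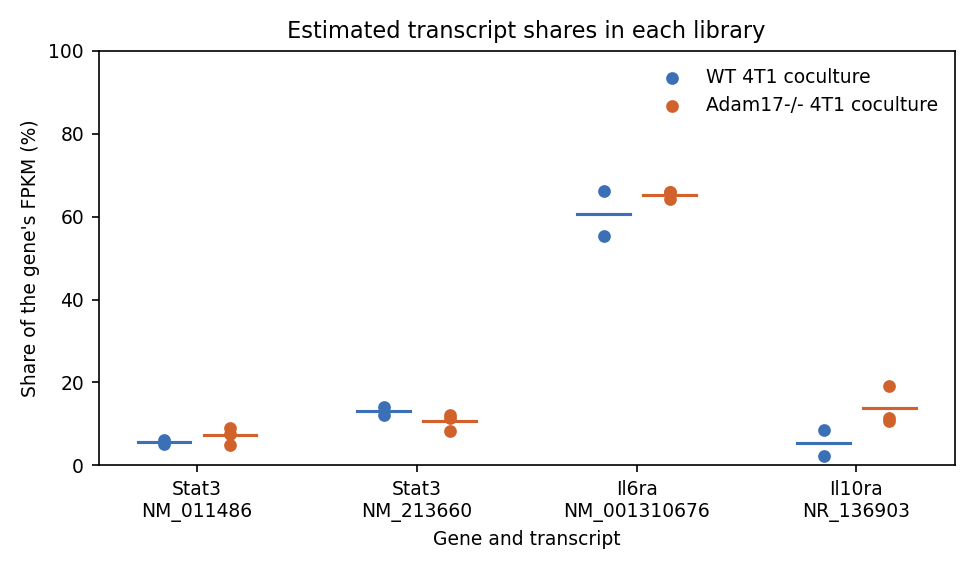
Share of each gene's FPKM (percent) held by its alternative transcripts of *Stat3*, *Il6ra* and *Il10ra*, 1 point per library, by coculture. The *Il10ra* transcript NR_136903 is at 2.24% and 8.61% in the WT libraries and at 10.7% to 19.2% in the *Adam17*-/- libraries, while the *Stat3* and *Il6ra* groups overlap.

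*Socs3* (Entrez gene 12702, chr11:117966079-117970336), the classical STAT3-induced inhibitor of gp130, was at 179 and 169 CPM in the WT libraries and at 175, 206 and 179.8 CPM in the *Adam17*-/- libraries. These CPM values overlapped, with only replicate 2 of the *Adam17*-/- libraries well above the rest. The FPKM values, which carry no TMM factors, did not overlap, at 61.5 and 60.8 against 68.4, 79.8 and 69.6. With library size alone the log2 fold change was 0.25 in place of 0.10. The fold was 1.07, with a 95% interval of 0.928 to 1.24 (edgeR, adjusted p = 0.437). In the RefSeq promoter windows of 300 bases (250 before and 50 after the start, GRCm38.p6), the letters TTCNNNGAA, the core of the palindromic STAT motif and the same on both strands, were found in 8.30% of 32851 windows. Of the 5 members with a window (*Il6*, *Il6ra*, *Il6st*, *Stat3* and *Socs3*), *Socs3* held it, from -154 to -146 relative to the start on which its window is set. That start lies inside the RefSeq span of the gene given above, so the match is within that span and not upstream of it. It is shown with its surroundings (minus strand, chr11:117969502-117969530, motif in capitals) as the only match among the members, and a match is not evidence of binding.
Socs3 motif in the promoter window: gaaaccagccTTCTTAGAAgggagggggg

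By the distance of log2 CPM values centered on each gene's mean over the 5 libraries, *Ube2e2* (distance 0.033) and *Zfp12* (0.040) were among the 3 genes most like *Socs3*. Neither passed edgeR's test (adjusted p = 0.735 and 0.609).

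Around the members, 72 further genes of the pathways were taken from 10 lists, and 60 of them passed the filter on low counts. In BMDMs cocultured with *Adam17*-/- 4T1 cells, 9 rose (15%) and 11 fell (18.3%), near the 14.9% and 16.8% of all genes tested, so the share of genes called did not set the pathway apart. With a log2 fold change of at least 1 required, 1 gene of the 60, *Myc*, was called, against 4.22% of all genes. The plot of the pathway lists shows most points within 0.5 of 0 on the log2 scale.

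**Figure D4:**
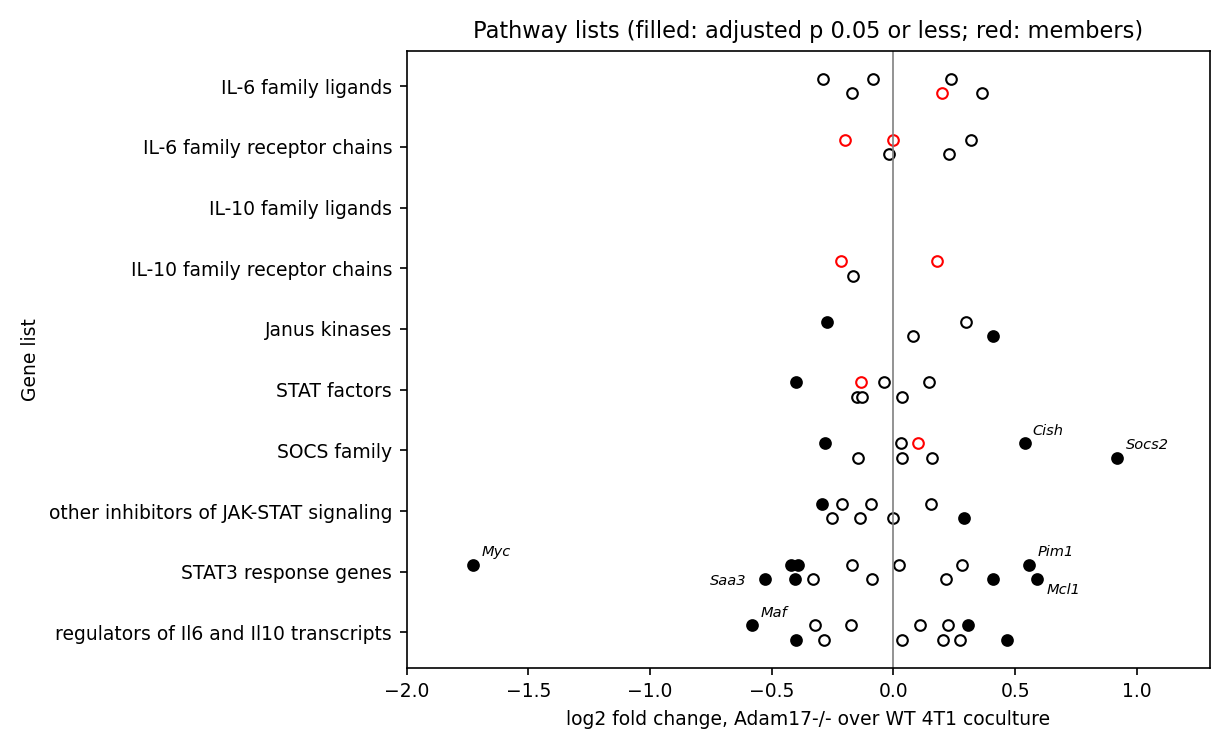
Log2 fold changes (*Adam17*-/- over WT 4T1 coculture) of the tested genes in each pathway list, with filled points at an adjusted p of 0.05 or less in edgeR and red outlines for the members. *Myc* (-1.73) and *Socs2* (0.92) lie farthest out, and no gene of the IL-10 family ligands was tested.

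None of the 6 tested IL-6 family ligands, 5 IL-6 family receptor chains and 3 IL-10 family receptor chains passed the test, members included. *Ebi3*, a subunit shared by IL-27 and IL-35, was at 39.4 and 36.6 CPM in the WT libraries and at 28.9, 28.4 and 35.8 CPM in the *Adam17*-/- libraries. These groups did not overlap, and its adjusted p in edgeR was 0.085. Among the Janus kinases, the gp130-associated *Jak1* fell and *Jak2* rose. *Jak1* was at 313 and 346 CPM against 268, 272 and 279 CPM (log2 fold change -0.27, edgeR, adjusted p = 0.0295). *Jak2* was at 71.4 and 89.7 CPM against 110, 106 and 105 CPM (log2 fold change 0.41, adjusted p = 0.0166 in edgeR). *Jak1* was called in 7 and *Jak2* in 11 of 15 analysis settings without a limit on fold change, and neither with any *Adam17*-/- library left out. *Jak3* did not pass (log2 fold change 0.30, edgeR, adjusted p = 0.0716) but was called higher in 7 of the 15 settings. *Tyk2* did not pass either (edgeR, adjusted p = 0.542). Of the 7 STAT genes, *Stat5a* alone passed, falling from 34.1 and 29.2 CPM to 24.8, 23.6 and 23.5 CPM (edgeR, adjusted p = 0.0163). *Stat5a* lies next to *Stat3*, at chr11:100859351-100885169.

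In the SOCS family, whose 8 genes were all tested, *Socs2* and *Cish* rose and *Socs5* fell, while *Socs1* and *Socs3* did not pass. The call of *Socs5* (log2 fold change -0.28, edgeR, adjusted p = 0.0470) held in 3 of the 15 settings. *Socs2* and *Cish* are known targets of STAT5 that restrain growth hormone and interleukin receptors. *Socs2* was at 41.3 and 48.1 CPM with WT 4T1 cells and at 83.3, 80.8 and 89.8 CPM with *Adam17*-/- 4T1 cells (log2 fold change 0.92, SE 0.099, edgeR, adjusted p = 0.000485). *Cish* was at 17.8 and 15.3 CPM against 23.4, 24.1 and 24.6 CPM (log2 fold change 0.54, edgeR, adjusted p = 0.00602). In both genes every *Adam17*-/- library was above both WT libraries. Among 8 other inhibitors of JAK-STAT signaling, the phosphatase gene *Ptpn2* rose (log2 fold change 0.29) and *Ptpn6*, encoding SHP-1, fell (log2 fold change -0.29), with adjusted p = 0.0469 and 0.0249 in edgeR.

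The 14 STAT3 response genes did not move in 1 direction, with 3 that rose and 5 that fell. Over all genes tested, 14.9% rose and 16.8% fell, and the list was not tested as a set. *Pim1*, a survival kinase, rose from 102 and 93.7 CPM to 145, 155 and 132 CPM. *Mcl1*, an antiapoptotic BCL-2 relative, rose from 874 and 970 CPM to 1474, 1369 and 1314 CPM. *Nfil3*, a repressor induced by IL-10, rose from 95.9 and 94.2 CPM to 136, 123 and 120 CPM. Their log2 fold changes were 0.56, 0.59 and 0.41 (edgeR, adjusted p = 0.00293, 0.00211 and 0.00768), and in none did the groups overlap. *Myc*, a growth regulator, fell furthest, from 67.6 and 51.5 CPM to 15.7, 14.7 and 23.3 CPM (log2 fold change -1.73, SE 0.185, edgeR, adjusted p = 0.000477). *Saa3*, an acute-phase gene of mouse macrophages, fell from 60.8 and 50.6 CPM to 40.4, 36.1 and 39.2 CPM (edgeR, adjusted p = 0.00536). *Il4ra*, *Bcl3* and *Cebpd* fell with log2 fold changes of -0.39, -0.42 and -0.41. These genes also answer to other factors than STAT3.

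Of the 12 regulators of *Il6* and *Il10* transcripts, 2 rose and 2 fell, beside 14.9% and 16.8% of all genes tested. *Maf*, a transcription factor that drives *Il10* in macrophages, fell from 383 and 485 CPM to 296, 294 and 280 CPM (log2 fold change -0.58, SE 0.103, edgeR, adjusted p = 0.00351). *Dusp1*, a MAP kinase phosphatase, also fell (log2 fold change -0.40), while *Prdm1* (0.31) and *Rc3h2* (0.47), the latter an RNA-binding protein of the Roquin family, rose. Across the 15 settings with no limit on fold change, *Socs2*, *Cish*, *Pim1*, *Mcl1* and *Nfil3* were called higher and *Myc*, *Maf* and *Saa3* lower in each. The other 12 calls were lost in some settings. *Prdm1* and *Rc3h2* were called in 11, *Il4ra* in 10, *Ptpn2* in 9, *Dusp1* and *Stat5a* in 8, *Ptpn6* in 7, and *Bcl3* and *Cebpd* in 6. With single *Adam17*-/- libraries left out, *Il4ra* without replicate 3 was the only one of the 12 still called. The macrophage and neutrophil marker shifts given above ran along with these changes, and their part was not tested. The direction counts depended on scaling. With library size alone, 15 pathway genes were higher and 3 lower, beside 24.0% of all genes higher and 8.56% lower at that setting.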

How the data were processed

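Poly-A RNA-Seq libraries of BMDMs were grouped by their labels, 2 cocultured with WT and 3 with *Adam17*-/- 4T1 cells. The authors sequenced them on a BGISEQ-500 instrument and used HISAT, Bowtie2, RSEM and DESeq2 on the mm10 (GRCm38) build, in versions that are not given in the sources used here. The authors deposited an expected count without normalization and an FPKM value scaled to length and library size for each RefSeq transcript. Transcripts below 0.01 FPKM are not listed and were taken as 0. Strand use in counting is not given in the sources used here. *Il6*, *Il6ra*, *Il10ra* and *Stat3* each overlap another annotated gene, and reads of such pairs cannot be told apart.

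The sum of expected counts over the transcripts of a gene was rounded to a whole number. The test was the quasi-likelihood test of edgeR 4.0.16, run in R 4.3.3 (filterByExpr, TMM factors, glmQLFit and glmQLFTest), with Benjamini-Hochberg adjustment over 12576 genes. Levels are TMM-normalized CPM or the deposited FPKM. The alternatives used limma 3.58.1 on log2(FPKM + 0.1) or log2(FPKM + 1), DESeq2 1.42.0, other scaling and filters, leaving out each library, and a replicate block. The code was tested on simulated data. Library totals of 14658694 to 20788373 counts set the precision, and intervals of summed counts cover counting error only. Symbols were found in RefSeq for 17015 of 17058 gene identifiers. Motifs and promoters came from RefSeq (GRCm38.p6) and exons from GENCODE on GRCm38.

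The named genes were the 9 members, the genes of the pathway and marker lists, *Adam17*, and the 3 genes nearest to *Socs3* in pattern, of which 1 is not reported here. Members and lists were chosen with earlier results of these data known.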

Additional observations from a re-analysis of the deposited data

How the results depend on the processing

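The count of members called higher was 1 (*Il10ra*) in place of 0 with library size only and with limma on FPKM + 0.1 and on FPKM + 1. There 24.0%, 23.3% and 22.8% of all genes were called higher. With each *Adam17*-/- library left out, 0 members were called higher or lower, beside 8.73% to 9.96% of all genes higher and 7.42% to 9.97% lower. *Il10rb* had a log2 fold change of -0.22 without either WT library. With a WT library left out, the lone WT sample was assumed to vary like the other group. *Il10ra* had log2 fold changes of 0.33 with library size and both FPKM scales (adjusted p = 0.0136 in edgeR, 0.0141 and 0.0142 in limma) and 0.24 without WT replicate 1 (edgeR, adjusted p = 0.0347), but 0.12 without WT replicate 2 (edgeR, adjusted p = 0.255) and 0.06 over coding transcripts only, an alternative chosen after seeing the data. The sign of *Il6st* turned to 0.053 with upper-quartile scaling, 0.14 with library size only, 0.010 with at least 10 counts in every sample, and 0.14 and 0.14 in limma, and ranged from -0.058 to 0.046 over single libraries left out. *Stat3* turned to 0.015 with library size only and in both limma fits, and was -0.081 without WT replicate 1, -0.19 without WT replicate 2 and -0.087 without *Adam17*-/- replicate 2. Pathway genes called higher were 15 with library size only, 14 and 14 in limma, 6 with a replicate block and 5 to 13 over single libraries left out, and those called lower were 6 with upper-quartile scaling, 3 with library size only, 3 and 3 in limma, 4 with the replicate block and 3 to 20 over single libraries left out. With a log2 fold change of at least 1, 0 pathway genes were higher and 1 was lower. The share higher among pathway calls was 45% in the main test, 66.7% with upper-quartile scaling, 83.3% with library size only and 82.4% in limma. Calls over all genes shifted in the same direction. They were 14.9% higher and 16.8% lower in the main test, and 17.8% and 12.9% with upper-quartile scaling. With library size only they were 24.0% and 8.56%, and in limma on FPKM + 0.1 they were 23.3% and 8.08%. The median log2 value over all genes moved from 0.0092 to 0.16 (library size) and to 0.15 and 0.11 (limma). The labels do not state whether same-numbered libraries were paired. Correlations of their deviations were -0.12 and -0.050. With 2 WT libraries the WT deviations mirror each other, so these values cannot decide it. The replicate block called 0 members, beside 9.67% of all genes higher and 8.95% lower. *Il6ra*, *Osm*, *Socs3* and *Il10rb* kept their direction under 14 alternatives each, and the first 3 passed under none. Their sizes moved. *Il6ra* went to -0.052, *Il10rb* to -0.068, *Osm* to 0.35 and *Socs3* to 0.25 with library size only. *Osm* was 0.32 without WT replicate 1, 0.075 without WT replicate 2 and 0.11 without *Adam17*-/- replicate 2. *Socs3* was 0.056 without WT replicate 2, 0.044 without *Adam17*-/- replicate 2 and 0.17 without *Adam17*-/- replicate 1. The replicate block put the adjusted p of *Il10rb* at 0.383 in edgeR. Depth limits *Il6* and *Il10*, which had at most 9 counts in a library.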
